A study of Mus musculus with 12 samples.

Results

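The samples described here were tbGFP-positive mouse embryonic stem cells, a sorted fraction enriched for 2-cell-like cells, collected at 6 h and at 24 h of sorbitol. They were chosen by their labels and made up 4 of the 12 libraries of the series, with 2 libraries at each time. All libraries came from the mouse line E14, here with the genotype 2C::3xtbGFP, in which a promoter active in the 2-cell state drives turboGFP. The cells were kept in medium with serum and LIF, a cytokine that holds mouse embryonic stem cells in self-renewal. They had been expanded with the kinase inhibitors CHIR99021 and PD0325901 and were plated without them. After culture with sorbitol for 0, 6 or 24 h, 50000 cells per library were sorted by flow cytometry as tbGFP-positive or tbGFP-negative, and total RNA was sequenced. The sorbitol concentration is not given in the sources used here. The labels give 48 h of culture for every group, 0 h included, and do not say whether the hours in sorbitol lay within it, so whether the groups had equal time in culture is not known. Within a group the libraries are numbered 1 and 2, and nothing in the labels says that they came from separate cultures. P-values therefore measure the spread between these libraries, which may be technical.

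A few cells in a culture of mouse embryonic stem cells pass through a transient state that shares transcripts with the 2-cell embryo. In that state the transcription factor Dux binds genes of the first wave of zygotic transcription, among them the Zscan4 cluster and genes driven by the repeats of the endogenous retrovirus MERVL. Sorbitol is a sugar alcohol that raises the osmolarity of the medium. Cells respond to hyperosmotic stress by importing or making small organic solutes, by kinase signalling and by slowing translation. Because both groups were sorted through the same tbGFP gate, the gate limits how far the 2-cell reporter itself could differ between them. A cell that was positive at 24 h need not have been positive at 6 h, and in these sorted pools fewer cells with a transcript and less of it per cell cannot be told apart.

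The 2-cell identity of the fraction was visible at both times. Summed over the 51 tested genes of the 2-cell list, the level was 65801 and 60461 CPM (counts scaled to 1000000 of the library's total times its TMM normalization factor) in replicates 1 and 2 at 6 h and 60571 and 58766 CPM at 24 h, against 77469 and 88029 CPM in tbGFP-positive cells at 0 h. In tbGFP-negative cells the same sum was 533.6 and 525.9 CPM at 6 h and 1752 and 1654 CPM at 24 h. The 6 transcribed Zscan4 genes, Zscan4a to Zscan4f, took 3.58% and 2.7% of all counts at 6 h and 2.5% and 2.93% at 24 h. The stem cell markers Pou5f1, Sox2 and Klf4 were also present in all 4 libraries, with Sox2 at 367 and 474 CPM at 6 h and at 602 and 515 CPM at 24 h. Of the other stem cell markers chosen, Nanog and Esrrb had at least 10 counts in each of the 4 libraries, and Zfp42 did not. The log2 change of Zfp42 from 6 h to 24 h was 8.05 without 6 h replicate 1 and 0.32 without 6 h replicate 2, so its 6 h level was uneven.

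Total counts per library were 3581875 and 7832956 at 6 h and 6457729 and 7134401 at 24 h, so that 3 counts corresponded to 0.905 and 0.426 CPM at 6 h and to 0.532 and 0.442 CPM at 24 h. The 6 h libraries held fewer genes at equal depth. Thinned to 2305061 counts, they showed 17035 and 16525 genes with a count, against 22191 and 22476 at 24 h, 21543 and 17605 in tbGFP-positive cells at 0 h, and 18674 to 22908 in the tbGFP-negative libraries. The part of this difference in the results was not tested. Genes at 0 counts in both 6 h libraries are therefore described apart.

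From 6 h to 24 h, 1146 of 19384 tested genes rose (5.91%) and 563 fell (2.90%), 1709 in all (8.82%), by edgeR's quasi-likelihood F test with Benjamini-Hochberg adjustment at a threshold of 0.05. Of the genes that rose, 452, or 39.4%, had no count in either 6 h library. The other 694 had counts at 6 h. Among the 8936 genes with at least 10 counts in each of the 4 libraries, 495 rose and 466 fell in the same fit, and the median log2 change was -0.06, against 0.13 over all genes tested. The counts changed with the libraries fitted and with the test used, and the cause was not tested. Fitted with the 4 libraries alone, edgeR called 0 genes, although 2336 had an unadjusted p under 0.05. DESeq2 called 2886. Leaving out 24 h replicate 1 left 241 calls and leaving out 24 h replicate 2 left 353, while leaving out 6 h replicate 1 gave 4008 and leaving out 6 h replicate 2 gave 4758. Leaving out any 1 of the 6 tbGFP-negative libraries left between 938 and 1135. Of 153 called genes named here, none passed with the 4 libraries alone (adjusted p between 0.19 and 0.395), and 50 passed in every other setting in which they were tested. Of these, 39 were tested under all 22 other settings, and 11 had too few counts for the filter of 10 counts in each library. The shares of 5.91% and 2.90% over all genes are those against which the counts of list members in the main fit are read. They include 2326 genes at 0 in both 6 h libraries, which could not fall. Of the 8936 better counted genes 466 fell, a larger share than 2.90%, so an excess over 2.90% is smaller against such genes. Total calls changed widely with the library left out. List counts under those settings are not read against these shares and describe no trait of a list.

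**Figure D1:**
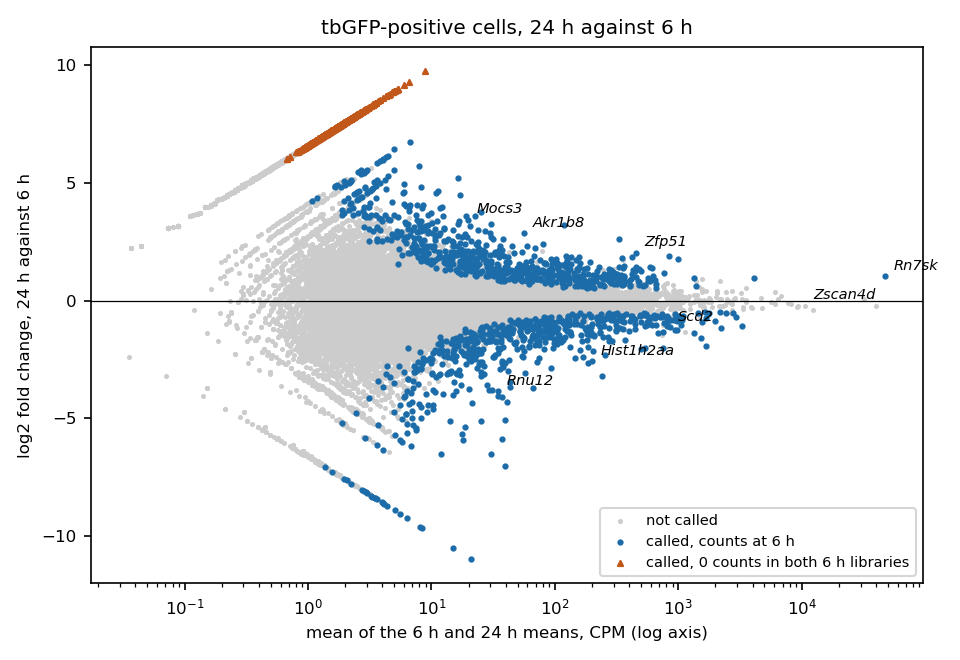
Change from 6 h to 24 h in tbGFP-positive cells (y axis, log2 fold change from edgeR) against the mean level (x axis, CPM, log scale), 1 point per tested gene. Blue points passed the test with counts at 6 h, orange triangles passed it with 0 counts in both 6 h libraries and grey points did not pass. The 452 genes without counts at 6 h lie at low levels and large fitted changes.

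The genes of the 2-cell program that passed the test moved in both directions, and the other tested members did not pass. Of the 51 tested members of the 2-cell list, 8 fell (15.7%, against 2.90% of all genes) and 4 rose (7.84%, against 5.91%). The list's median log2 change was -0.16, against 0.13 over all genes, and 22 members had a positive and 29 a negative change. The counts without 24 h replicate 1 were 2 lower and 2 higher, and without 24 h replicate 2 they were 3 and 2. They were 10 and 7 without 6 h replicate 1, and without 6 h replicate 2 they were 12 and 12. The members that rose included 2 Tdpoz genes, and those that fell included Dux and 2 Usp17-like genes, so the list did not move as a block. Near-identical copies are common among these genes (Zscan4, Usp17l, Tdpoz, Dux), and how reads shared between copies were counted is not stated, so values of single copies are uncertain.

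Duxf3, the mouse Dux gene (chromosome 10, 58229979 to 58232675, GRCm38), fell most among the members that passed. It was at 181 and 307 CPM at 6 h and at 48.3 and 42.1 CPM at 24 h, or 244 ± 88.8 and 45.2 ± 4.36 CPM (mean ± SD, n = 2), with no overlap between the times. The log2 change was -2.44 ± 0.32 (± SE), a 5.43-fold lower level, with an adjusted p of 0.00089. In tbGFP-positive cells at 0 h Duxf3 stood at 120 and 78.8 CPM, between both later times. Slc34a2, a sodium-phosphate cotransporter, went from 120 and 147 CPM to 27 and 36.5 CPM, a log2 change of -2.07 ± 0.30 (adjusted p = 0.00183), and both 0 h libraries (48.6 and 51.6 CPM) lay between those of 6 h and 24 h. These were the 2 members that fell and kept their call whichever single library was left out.

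Spz1, which encodes a transcription factor known from testis, fell from 226 and 254 CPM to 84 and 92.9 CPM, by 1.44 ± 0.23 on the log2 scale. Pramef6, of the PRAME family, was at 93.2 and 93.3 CPM at 6 h and at 16.3 and 19.7 CPM at 24 h, a log2 change of -2.37 ± 0.50. The deubiquitinase gene Usp17ld fell from 867 and 583 CPM to 363 and 319 CPM, a log2 change of -1.09 ± 0.24, and Usp17le, of the same family, from 324 and 187 CPM to 119 and 116 CPM, a log2 change of -1.12 ± 0.30. Tmem92, a transmembrane protein gene, changed less, from 435 and 467 CPM to 266 and 225 CPM (log2 change -0.88 ± 0.25). AF067061 had 85.7 and 75.9 CPM at 6 h and 25.9 and 30.8 CPM at 24 h. In each of these 6 genes both 6 h libraries lay above both 24 h libraries. Their edgeR adjusted p-values were between 0.00332 (Spz1) and 0.042 (Tmem92). Without 24 h replicate 1 the adjusted p was 0.0616 for Spz1, 0.141 for Pramef6, 0.0967 for Usp17ld, 0.187 for Usp17le, 0.154 for Tmem92 and 0.199 for AF067061. In the fit without 24 h replicate 2 Spz1 passed and the other five did not (adjusted p between 0.0994 and 0.228). Usp17le also missed the threshold without 6 h replicate 1 (adjusted p = 0.067), and Tmem92 and Usp17le without some libraries of other groups.

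The 4 members that rose were Tdpoz2, Tdpoz4, Arg2 and Ddit4l. Tdpoz genes encode proteins with a TRAF domain and a POZ domain that are transcribed in the early embryo. Tdpoz2 rose from 5.73 and 8.51 CPM to 54.7 and 50.9 CPM, a log2 change of 2.87 ± 0.44 (edgeR adjusted p = 0.00233). Tdpoz4 rose from 264 and 442 CPM to 1500 and 1130 CPM, a log2 change of 1.90 ± 0.25 (adjusted p = 0.000902). At 0 h the levels lay between those of 6 h and 24 h, at 20.9 and 22.7 CPM for Tdpoz2 and at 597 and 768 CPM for Tdpoz4. Arg2, a mitochondrial arginase, was at 211 and 274 CPM at 6 h and at 546 and 422 CPM at 24 h (log2 change 0.99 ± 0.24, adjusted p = 0.0233). Ddit4l, an inhibitor of mTORC1 signalling, was at 214 and 153 CPM and then at 367 and 322 CPM (log2 change 0.91 ± 0.21, adjusted p = 0.0166). Both Tdpoz calls held whichever single library was left out. When 24 h replicate 1 or 24 h replicate 2 was left out the adjusted p was 0.2 and 0.0632 for Arg2, and 0.134 and 0.0634 for Ddit4l.

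The most abundant members showed no change that passed the test. Zscan4d was at 12500 and 10200 CPM at 6 h and at 9130 and 10400 CPM at 24 h, means of 11400 ± 1590 and 9790 ± 929 CPM (SD, n = 2), and the libraries of both times overlapped. Its log2 change was -0.21 ± 0.17 with an edgeR adjusted p of 0.442. Both values lay under the 0 h level of 18100 and 19800 CPM. Zscan4c, at 9490 and 7750 CPM and then at 7660 and 7770 CPM, and Gm8300, an eIF1A-like gene of the 2-cell set, at 5580 and 5910 CPM and then at 5730 and 5390 CPM, also overlapped (adjusted p = 0.746 and 0.875). The MERVL-linked gene Zfp352 had 45.6 and 23.4 CPM at 6 h and 68.5 and 58.9 CPM at 24 h (adjusted p = 0.168). Tcstv3 had 139 and 73.3 CPM and then 62.8 and 57.6 CPM (adjusted p = 0.118).

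**Figure D2:**
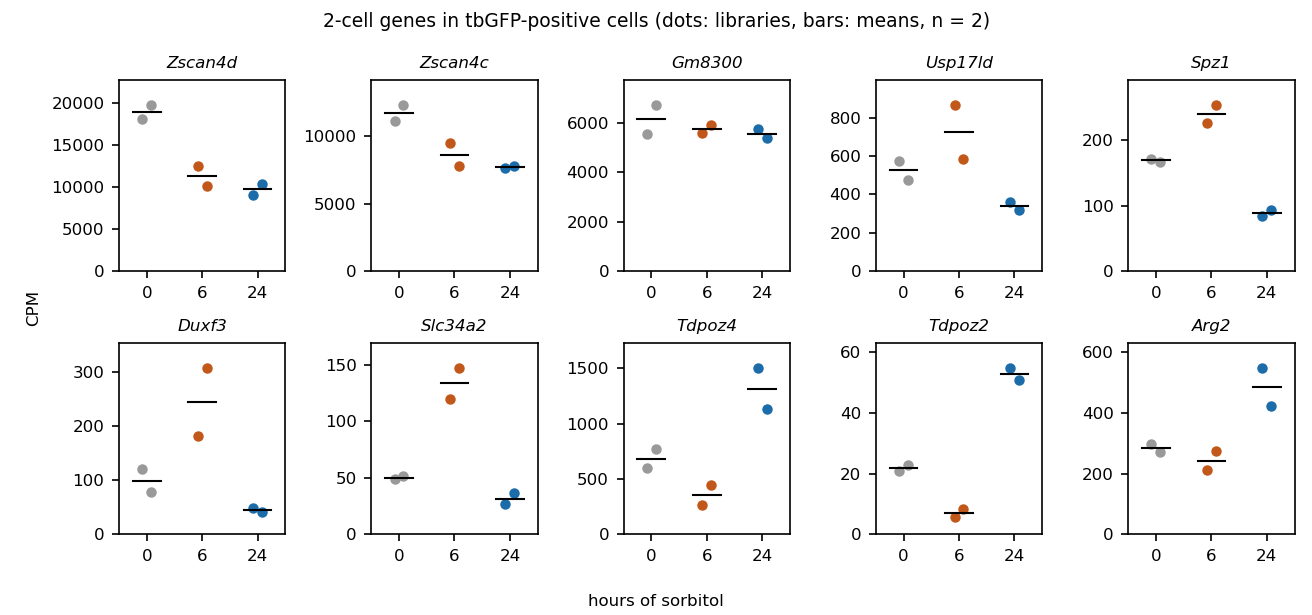
Level (y axis, CPM) of 10 genes of the 2-cell program in each tbGFP-positive library at 0, 6 and 24 h of sorbitol (x axis), 1 dot per library and a bar at the mean of 2. Duxf3, Slc34a2, Spz1 and Usp17ld are lower at 24 h than at 6 h, Tdpoz2, Tdpoz4 and Arg2 are higher, and Zscan4d, Zscan4c and Gm8300 overlap between those times.

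Of 32 tested genes of a list of repressors and regulators of the 2-cell state, 2 rose and 2 fell. Each was 6.25% of the list, against 5.91% of all genes that rose and 2.90% that fell. Nelfa, a subunit of the negative elongation factor that is also present in the early embryo, went from 2460 and 3130 CPM to 6560 and 4300 CPM, which overlapped with its 0 h level of 6330 and 5030 CPM, a log2 change of 0.96 ± 0.19 (adjusted p = 0.00797). Ehmt2, a histone H3 lysine 9 methyltransferase, had no counts at 6 h, so it could not fall, and 1.77 and 4.12 CPM at 24 h. Lin28a, an RNA-binding protein that blocks let-7 maturation, fell from 855 and 1160 CPM to 509 and 528 CPM, a log2 change of -0.96 ± 0.15 (adjusted p = 0.00222). Ncl, the nucleolar protein nucleolin, fell from 1180 and 977 CPM to 430 and 425 CPM, a log2 change of -1.33 ± 0.20 (adjusted p = 0.00183). The calls of Lin28a and Ncl held without any single library. Without 24 h replicate 1 the edgeR adjusted p of Nelfa was 0.119, and that of Ehmt2 0.0915. Ehmt2 also missed the threshold without 24 h replicate 2 (0.136) and without any 1 tbGFP-negative library of 6 h or 24 h (up to 0.0604).

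The smallest p-value of the comparison among the named genes belonged to a testis histone gene. Hist1h2aa (chromosome 13, 23934462 to 23934851) encodes the H2A variant TH2A, and its divergent neighbour Hist1h2ba (23933773 to 23934156) encodes TH2B. Both are known from male germ cells, oocytes and early embryos. Most of the stretch between their starts is printed because it lies upstream of both genes, whose transcripts both fell. In RefSeq (GRCm38.p6) the annotated starts of the pair, named H2ac1 and H2bc1 there, are at 23934437 and 23934156, with 280 bases between them. The 250 bases before the H2ac1 start, chr13:23934187-23934436 on the plus strand, are given with capitals for CCAAT, ATGCAAAT and TATAAA, searched on both strands. These letters were chosen after the window had been looked at.
Hist1h2aa: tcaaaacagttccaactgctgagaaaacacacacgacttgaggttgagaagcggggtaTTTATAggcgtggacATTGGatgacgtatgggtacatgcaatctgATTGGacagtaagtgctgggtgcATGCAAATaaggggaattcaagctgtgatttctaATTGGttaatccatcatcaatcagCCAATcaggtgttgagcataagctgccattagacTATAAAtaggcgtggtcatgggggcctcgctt
CCAAT or its reverse complement begins at positions -177, -147, -90 and -66 from the H2ac1 start, ATGCAAAT (an octamer) at -124, and TATAAA or its reverse complement at -192 and -32. Among 32851 RefSeq windows of 250 bases, of 27025 genes, 33.8% hold CCAAT, 1.6% ATGCAAAT and 12.4% TATAAA. A match describes the letters only.

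Hist1h2aa was at 364 and 329 CPM at 6 h and at 63.2 and 52.7 CPM at 24 h, and had stood at 60.1 and 53.1 CPM at 0 h. The 24 h and 0 h libraries overlapped and the 6 h libraries lay above both. The log2 change from 6 h to 24 h was -2.58 ± 0.25, or 5.98-fold lower, with an edgeR adjusted p of 0.000459. Hist1h2ba had 422 and 239 CPM at 6 h, 86.4 and 65.5 CPM at 24 h and 97.7 and 80.1 CPM at 0 h, and its log2 change was -2.12 ± 0.25 (adjusted p = 0.000684). Hist1h1t (chromosome 13, 23695814 to 23696725), the testis linker histone, had 172 and 141 CPM, then 48.8 and 28.1 CPM, and 51.3 and 49.7 CPM at 0 h (log2 change -2.02 ± 0.25, adjusted p = 0.000749). All 3 calls held without any single library. Of 54 tested replication histone genes, by contrast, 1 rose (Hist1h1d, from 916 and 895 CPM to 2150 and 1380 CPM). In that list 1 fell (Hist1h1a, from 4090 and 3180 CPM to 2530 and 1960 CPM), and the median log2 change was 0.14. Each was 1.85% of the list, against 5.91% of all genes that rose and 2.90% that fell. Without 24 h replicate 1 Hist1h1d did not pass (adjusted p = 0.121), and without 24 h replicate 2 Hist1h1a did not (adjusted p = 0.131). In that list 8 members were lower without 6 h replicate 2.

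ATF4 is the transcription factor of the integrated stress response. When translation initiation is limited it is made and induces genes for tRNA charging, amino acid import, and serine and one-carbon metabolism. Of 32 tested targets, 7 fell (21.9%, against 2.90% of all genes) and 0 rose, the median log2 change was -0.71 against 0.13 over all genes, and 24 members had a negative change. Summed over the list, the level was 5709 and 6100 CPM at 6 h and 3838 and 3692 CPM at 24 h. By edgeR no member was lower without 24 h replicate 1, and without 24 h replicate 2 there were 2. There were 9 that fell and 3 that rose without 6 h replicate 1, and without 6 h replicate 2, 12 fell and 2 rose. With DESeq2 11 fell. Leaving out a tbGFP-negative library of 0 h or of 6 h left 4 and 3.

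Promoters of 3 of the 7 genes are shown because they hold the letters TGATGNAA, the core of the C/EBP-ATF response element that ATF4 is known to bind. The capitals mark those letters on either strand in the 250 bases before the RefSeq start (GRCm38.p6, plus strand). The windows are chr8:111033592-111033841 for Aars, chr6:55037751-55038000 for Gars and chr2:119350992-119351241 for Chac1.
Aars: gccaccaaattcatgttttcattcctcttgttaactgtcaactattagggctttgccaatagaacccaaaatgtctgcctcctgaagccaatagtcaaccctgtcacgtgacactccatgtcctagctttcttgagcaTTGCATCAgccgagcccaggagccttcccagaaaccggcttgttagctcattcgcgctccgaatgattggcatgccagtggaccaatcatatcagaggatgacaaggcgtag
Gars: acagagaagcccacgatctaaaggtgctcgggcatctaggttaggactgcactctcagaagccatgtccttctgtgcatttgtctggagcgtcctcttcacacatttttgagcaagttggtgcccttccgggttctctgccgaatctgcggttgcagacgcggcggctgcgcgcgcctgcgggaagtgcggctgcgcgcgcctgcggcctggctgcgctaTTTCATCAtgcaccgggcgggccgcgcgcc
Chac1: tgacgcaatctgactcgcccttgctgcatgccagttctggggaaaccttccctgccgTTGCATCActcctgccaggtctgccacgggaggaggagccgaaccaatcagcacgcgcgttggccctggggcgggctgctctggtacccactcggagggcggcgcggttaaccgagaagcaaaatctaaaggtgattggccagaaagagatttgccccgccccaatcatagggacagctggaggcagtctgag
The match begins at position -112 from the start in Aars, at -30 in Gars and at -193 in Chac1. A window was found for 6 of the 7 genes and for 25 of the 32 tested targets, of which 3 and 8 hold the letters, against 3.45% of all 32851 windows. The list was made of known ATF4 targets, so this share is a description of the list and not of the change.

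Gars, glycyl-tRNA synthetase, fell from 1530 and 1180 CPM to 735 and 806 CPM, a log2 change of -0.82 ± 0.14 (adjusted p = 0.00462). Aars, alanyl-tRNA synthetase, fell from 918 and 842 CPM to 552 and 537 CPM (log2 change -0.69 ± 0.16, adjusted p = 0.018). Mthfd2, of mitochondrial folate metabolism, fell from 165 and 111 CPM to 57.5 and 64.6 CPM (log2 change -1.17 ± 0.22, adjusted p = 0.00614). Both 6 h libraries lay above both 24 h libraries for these 3 genes. Chac1, which degrades glutathione, went from 45.3 and 19.1 CPM to 8.52 and 13.1 CPM (log2 change -1.55 ± 0.41, adjusted p = 0.0308). Phgdh, the first enzyme of serine synthesis, went from 290 and 346 CPM to 181 and 165 CPM (log2 change -0.88 ± 0.24, adjusted p = 0.0382). The plasma membrane carriers Slc7a1, for cationic amino acids, and Slc7a5, for large neutral ones, fell from 309 and 240 CPM to 171 and 160 CPM and from 458 and 444 CPM to 306 and 296 CPM. At 0 h Gars (1270 and 1170 CPM) and Chac1 (64 and 44 CPM) had levels that overlapped with those of 6 h. By edgeR, Gars missed the threshold without 24 h replicate 1 (adjusted p = 0.069) and so did Mthfd2 (0.0814). Aars, Chac1, Phgdh, Slc7a1 and Slc7a5 missed it without either 24 h library, with adjusted p between 0.0918 and 0.222. Chac1 also missed it without 6 h replicate 1, where its log2 change was -0.81. Phgdh and Slc7a5 also missed it without any 1 tbGFP-negative library.

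Among 23 tested amino acid transporters, with a median log2 change of -0.58, 1 rose (4.35%, against 5.91% of all genes) and 4 fell (17.4%, against 2.90%). Beside Slc7a1 and Slc7a5 those that fell were Slc1a1, a glutamate carrier, which went from 26 and 46.1 CPM to 11.7 and 10.6 CPM, and Slc38a2. The number of members that fell was 0 without 24 h replicate 1 and 0 without 24 h replicate 2. Slc38a2, the neutral amino acid carrier SNAT2, is a known gene of the osmotic response, and fell from 1750 and 2470 CPM to 1250 and 1290 CPM (log2 change -0.73 ± 0.16, edgeR adjusted p = 0.0157). At 24 h it was still above its 0 h level of 555 and 694 CPM, in values only. Its adjusted p was 0.122 without 24 h replicate 1 and 0.0912 without 24 h replicate 2, and that of Slc1a1 was 0.172 and 0.182.

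Of 22 tested members of the osmotic response list, 4 rose (18.2%, against 5.91% of all genes) and 1, the carrier Slc38a2, fell (4.55%, against 2.90%). The median log2 change was 0.12. Akr1b8, an aldo-keto reductase, rose most, from 6.94 and 19.1 CPM to 110 and 90 CPM (log2 change 2.88 ± 0.36, or 7.36-fold, adjusted p = 0.000749), against 16.5 and 21.5 CPM at 0 h. Sord, sorbitol dehydrogenase, which oxidises sorbitol to fructose, rose from 397 and 512 CPM to 907 and 767 CPM (log2 change 0.88 ± 0.16, adjusted p = 0.00582). At 0 h Sord had been at 823 and 742 CPM, which overlapped with 24 h. The taurine transporter Slc6a6 rose from 224 and 266 CPM to 463 and 377 CPM (log2 change 0.78 ± 0.17, adjusted p = 0.0161). The sodium-potassium-chloride cotransporter Slc12a2 rose from 224 and 233 CPM to 366 and 386 CPM (log2 change 0.72 ± 0.15, adjusted p = 0.0132). In each of the 4 genes both 24 h libraries were above both 6 h libraries. By edgeR, the call of Akr1b8 held without any single library, and its log2 change was 3.84 without 6 h replicate 2. It was the only member that rose without 24 h replicate 1, with an adjusted p of 0.0786 for Sord, 0.149 for Slc6a6 and 0.0749 for Slc12a2. Slc12a2 also missed the threshold without 24 h replicate 2 (0.0857), and without 6 h replicate 2 the list had 8 members that rose.

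Slc5a3, the myo-inositol transporter, and Akr1b3, aldose reductase, are classical targets of the tonicity factor NFAT5. Slc5a3 had 322 and 342 CPM at 6 h and 283 and 292 CPM at 24 h, against 51.9 and 27.4 CPM at 0 h. Its log2 change from 6 h to 24 h was -0.21 ± 0.22 (adjusted p = 0.585), and both later times lay above 0 h in every library. Akr1b3 had 60.4 and 71.1 CPM at 6 h, 63 and 58.3 CPM at 24 h and 26.4 and 24 CPM at 0 h, so that 6 h and 24 h overlapped (log2 change -0.12 ± 0.23, edgeR adjusted p = 0.784).

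Several targets of p53, the transcription factor of the DNA damage and stress response, were uneven between the 6 h libraries. Of 27 tested targets 4 fell (14.8%, against 2.90% of all genes) and 0 rose, with a median log2 change of -0.46. Plk2, a kinase, was at 435 and 1960 CPM at 6 h and at 279 and 321 CPM at 24 h (log2 change -2.00 ± 0.47, adjusted p = 0.0275), against 161 and 141 CPM at 0 h. The 6 h replicates of Plk2 differed more from each other than replicate 1 did from the 24 h libraries, and its log2 change was -0.54 without 6 h replicate 2 and -2.71 without 6 h replicate 1. Zmat3, an RNA-binding protein, had 31.7 and 30.5 CPM and then 10.5 and 13.1 CPM (log2 change -1.39 ± 0.34, adjusted p = 0.0223). Cdkn1a, the cell cycle inhibitor p21, had 10.3 and 17 CPM and then 1.77 in both libraries (log2 change -2.94 ± 0.78, adjusted p = 0.0318), and Gadd45b 35 and 24.5 CPM and then 8.7 and 3.98 CPM (log2 change -2.23 ± 0.66, adjusted p = 0.0491). For these 3 genes the times did not overlap. The log2 change of Gadd45b was -2.89 without 24 h replicate 1.

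Several further targets were higher in 6 h replicate 2 than in replicate 1 and did not pass. Mdm2, the ubiquitin ligase of p53, had 21.1 and 83 CPM at 6 h and 22.5 and 29.2 CPM at 24 h (adjusted p = 0.144). Bbc3, which encodes the cell death protein PUMA, had 8.15 and 47 CPM and then 13 and 8.25 CPM (adjusted p = 0.138). Ccng1 had 594 and 1880 CPM and then 1470 and 1450 CPM (adjusted p = 0.701). The summed level of the list was 3235 CPM in replicate 1 and 9492 CPM in replicate 2 at 6 h, and 5180 and 4674 CPM at 24 h. The result depended on single libraries. By edgeR 7 members rose and 6 fell without 6 h replicate 2. There were 11 that fell and 0 that rose without 6 h replicate 1, and without 24 h replicate 1 or without 24 h replicate 2 none passed. Leaving out any 1 tbGFP-negative library of 6 h or 24 h left 1 that fell. Of 11 tested genes of the BCL2 family 1 passed (9.09%, against 8.82% of all genes). This was Mcl1, which blocks cell death at mitochondria, at 2230 and 2830 CPM and then 1790 and 1880 CPM (log2 change -0.46 ± 0.13, adjusted p = 0.0451). It missed the threshold without most single libraries, with an adjusted p of 0.222 without 24 h replicate 1 and 0.139 without 6 h replicate 2.

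Of 20 tested heat shock genes 2 fell (10%, against 2.90% of all genes) and 0 rose (median log2 change -0.27). They were the inducible HSP70 genes Hspa1a, from 76.7 and 70.5 CPM to 31.9 and 28.4 CPM, and Hspa1b, from 224 and 158 CPM to 101 and 88.5 CPM, which are near-identical copies. The call of Hspa1a was lost without any 1 tbGFP-negative library. Of 26 tested targets of NRF2, the antioxidant transcription factor, 3 fell (11.5%) and 1 rose (3.85%, against 5.91% of all genes), with a median log2 change of -0.48. Hmox1, heme oxygenase 1, fell from 134 and 201 CPM to 91.4 and 92.8 CPM (log2 change -0.87 ± 0.20, adjusted p = 0.0163), against 158 and 161 CPM at 0 h. Gsta4, a glutathione transferase, fell from 489 and 626 CPM to 322 and 330 CPM (log2 change -0.77 ± 0.15, adjusted p = 0.00866), and Prdx1, a peroxiredoxin, from 1150 and 1080 CPM to 608 and 668 CPM (log2 change -0.81 ± 0.21, adjusted p = 0.0281). Pgd, of the pentose phosphate pathway, went from 123 and 131 CPM to 232 and 172 CPM (adjusted p = 0.0478). Nqo1, a quinone reductase, had 156 and 164 CPM and then 145 and 152 CPM (adjusted p = 0.74). By edgeR, no heat shock or NRF2 member passed without 24 h replicate 1 or without 24 h replicate 2, and without 6 h replicate 1, 11 NRF2 targets were lower and 1 was higher. Without 6 h replicate 2, 6 NRF2 targets were lower and 7 higher, and 5 heat shock genes were lower and 1 higher.

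**Figure D3:**
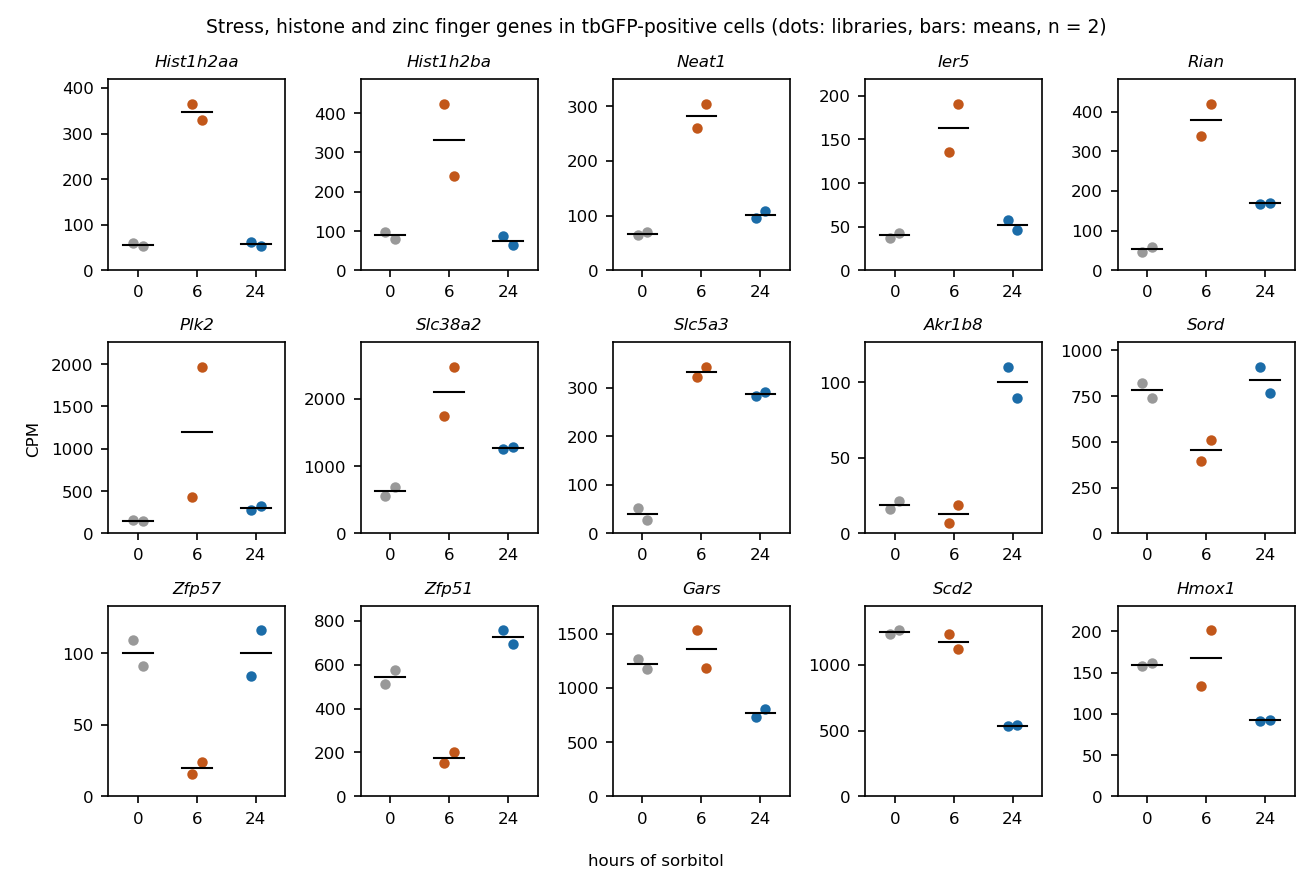
Level (y axis, CPM) in each tbGFP-positive library at 0, 6 and 24 h of sorbitol (x axis) for 15 genes named in the text, 1 dot per library and a bar at the mean of 2. Hist1h2aa, Hist1h2ba, Neat1, Ier5 and Plk2 are lower at 24 h than at 6 h, Akr1b8, Sord, Zfp57 and Zfp51 are higher, and both later times of Slc5a3 lie above 0 h.

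The cholesterol synthesis list holds genes of sterol and fatty acid synthesis that the transcription factor SREBP is known to induce. Of its 27 tested members 6 fell (22.2%, against 2.90% of all genes) and 1 rose (3.7%, against 5.91%). The median log2 change was -0.10. Scd2, a stearoyl-CoA desaturase, fell from 1230 and 1120 CPM to 531 and 540 CPM (log2 change -1.13 ± 0.13, adjusted p = 0.000684), and at 0 h it had been at 1230 and 1260 CPM. Scd1 fell from 366 and 471 CPM to 98.2 and 162 CPM (log2 change -1.69 ± 0.24, adjusted p = 0.00133). Insig1, which retains the SREBP complex in the endoplasmic reticulum, fell from 297 and 343 CPM to 155 and 137 CPM (log2 change -1.13 ± 0.19, adjusted p = 0.00344). Srebf2, the gene of SREBP2 itself, had 30.8 and 53.6 CPM and then 15.8 and 19.9 CPM, and Fasn, fatty acid synthase, 50.7 and 34.6 CPM and then 15.1 and 10 CPM. Nsdhl, of the late sterol pathway, had 88.4 and 85 CPM and then 51.8 and 50.2 CPM. Fdps, farnesyl diphosphate synthase, had 0.302 and 0 CPM at 6 h and 7.28 and 6.92 CPM at 24 h. The calls of Scd1 and Scd2 held without any single library. Of this list 3 members were lower without 24 h replicate 1, and without 24 h replicate 2 only Scd1 and Scd2 were. The adjusted p of Insig1 was then 0.0519, and Srebf2, Fasn and Nsdhl missed the threshold without either 24 h library (between 0.0881 and 0.191). Srebf2 also missed it without 6 h replicate 2 (0.0608).

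Outside that list, Abhd5, a co-activator of triglyceride lipase, fell from 99 and 61 CPM to 5.15 and 9.42 CPM (log2 change -3.44 ± 0.42, or 10.9-fold lower, adjusted p = 0.000688), and its 0 h levels were 6.7 and 4.94 CPM. Among 29 tested genes of glycolysis and hypoxia, 3 rose (10.3%, against 5.91% of all genes) and 1 fell (3.45%, against 2.90%). The median log2 change was 0.49. Pdk1, pyruvate dehydrogenase kinase, rose from 47.1 and 29.1 CPM to 75.6 and 89.4 CPM, Eno1 from 24.1 and 24.3 CPM to 42.8 and 47.1 CPM, and the lactate carrier Slc16a3 from 8.45 and 3.12 CPM to 21.8 and 19.3 CPM. Adm, the peptide hormone adrenomedullin, fell from 93.2 and 37.9 CPM to 2.13 and 5.74 CPM (log2 change -4.03 ± 0.61, adjusted p = 0.00195). By edgeR, the calls of Abhd5 and Adm held without any single library, with a log2 change of Adm of -3.24 without 6 h replicate 1 and -4.92 without 24 h replicate 2, and those of Pdk1, Eno1 and Slc16a3 were lost without either 24 h library (adjusted p between 0.0616 and 0.149). In the list of glycolysis and hypoxia 10 rose without 6 h replicate 1, and without 6 h replicate 2, 6 rose.

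Immediate-early genes respond to signals within hours. Of 21 tested immediate-early genes, 3 fell (14.3%, against 2.90% of all genes) and 1, Dusp6, rose (4.76%, against 5.91%). The median log2 change was -0.67. Dusp6 was at 0 counts in both 6 h libraries and could not fall. Btg1, an antiproliferative gene, fell from 319 and 354 CPM to 118 and 147 CPM (log2 change -1.35 ± 0.18, adjusted p = 0.000979). Ier5 fell from 136 and 190 CPM to 57.3 and 46.7 CPM (log2 change -1.65 ± 0.24, adjusted p = 0.00133), against 37.3 and 42.7 CPM at 0 h. Jun, of the AP-1 factor, had 153 and 118 CPM and then 68.3 and 61.4 CPM (log2 change -1.06 ± 0.29, adjusted p = 0.0378). Fos, its partner, had 65.5 and 66.1 CPM and then 59.8 and 37.8 CPM, which did not pass (adjusted p = 0.437). The calls of Btg1 and Ier5 held without any single library. That of Jun was lost without either 24 h library and also without any 1 tbGFP-negative library. Dusp6, an ERK phosphatase, had no counts at 6 h and 3.9 and 6.77 CPM at 24 h, and missed the threshold without 24 h replicate 2 (adjusted p = 0.0609). In the list 6 members were lower without 6 h replicate 1.

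Dll1 and Rassf4 were among the decreases with the smallest p-values. Dll1, a Notch ligand, fell from 80.9 and 99.9 CPM to 18.3 and 17.5 CPM (log2 change -2.34 ± 0.30, or 5.06-fold lower, adjusted p = 0.000851), with 42.3 and 30.4 CPM at 0 h. Rassf4, a Ras-association domain gene, fell from 83.3 and 121 CPM to 10.8 and 13.3 CPM (log2 change -3.09 ± 0.33, adjusted p = 0.000552). Further genes chosen after their values were seen moved in the same direction. Hes1, a Notch target, went from 101 and 44.7 CPM to 13.5 and 12.1 CPM (log2 change -2.50 ± 0.43). Efnb2, an ephrin, went from 116 and 97.7 CPM to 38.3 and 35.2 CPM (log2 change -1.53 ± 0.23). Nfkbia, the inhibitor and target of NF-kB, went from 180 and 145 CPM to 47 and 43 CPM (log2 change -1.85 ± 0.25). Yy1, a zinc finger transcription factor, went from 502 and 737 CPM to 261 and 276 CPM, and Dnajb9, a chaperone of the endoplasmic reticulum, from 387 and 348 CPM to 113 and 136 CPM. At 24 h Nfkbia lay above its 0 h values (35.4 and 23.7 CPM), whereas Yy1 (244 and 268 CPM) and Hes1 (14.7 and 16.1 CPM) were near them. Hes1 had a log2 change of -1.81 without 6 h replicate 1. It missed the threshold without 24 h replicate 1 (edgeR adjusted p = 0.0569) and without 24 h replicate 2 (0.0552), and the other six calls held without any single library.

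Of 13 tested members of a list of abundant nuclear noncoding RNAs, 3 fell (23.1%, against 2.90% of all genes) and 1 rose (7.69%, against 5.91%). The median log2 change was 0.36. Neat1, the RNA scaffold of paraspeckles, fell from 260 and 303 CPM to 95 and 109 CPM (log2 change -1.47 ± 0.19, adjusted p = 0.000851), and its 0 h level was 63.8 and 70.7 CPM. Rian, an RNA of the imprinted Dlk1-Dio3 locus, fell from 339 and 418 CPM to 166 and 171 CPM (log2 change -1.16 ± 0.19, adjusted p = 0.0031), against 47.3 and 59.8 CPM at 0 h. Rnu12, the U12 RNA of the minor spliceosome, fell from 75.1 and 54.3 CPM to 4.61 and 4.42 CPM (log2 change -3.83 ± 0.44, or 14.2-fold lower, adjusted p = 0.000684). Rn7sk, the 7SK RNA that holds the elongation kinase P-TEFb inactive, rose from 34200 and 27200 CPM to 75600 and 52500 CPM (log2 change 1.06 ± 0.18, adjusted p = 0.00372). Malat1 had 6600 and 3980 CPM and then 6270 and 7310 CPM, which overlapped (adjusted p = 0.25). Snhg14 and Zfas1, the only 2 of 12 tested snoRNA host genes that passed, fell from 160 and 204 CPM to 71.9 and 51.8 CPM and from 239 and 90.4 CPM to 41.2 and 58.9 CPM. They were 16.7% of that list, against 2.90% of all genes that fell. By edgeR, Neat1 and Rnu12 passed without any single library. The adjusted p of Rian was 0.0509 and that of Rn7sk 0.0711 without 24 h replicate 1, that of Snhg14 was 0.051 without 24 h replicate 2, and that of Zfas1 was 0.123 and 0.0505.

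The list of SR splicing factors and CLK kinases also held other RNA-binding proteins, among them the helicase Ddx5 and Hnrnpu. Of its 29 tested members 5 fell (17.2%, against 2.90% of all genes) and 1 rose (3.45%, against 5.91%). The median log2 change was -0.35. Srsf6 fell from 386 and 601 CPM to 206 and 225 CPM (log2 change -1.19 ± 0.21, adjusted p = 0.0043) and Luc7l3 from 80 and 90.1 CPM to 29.1 and 39.9 CPM (log2 change -1.30 ± 0.24, adjusted p = 0.00641). Ddx5, an RNA helicase, fell from 517 and 518 CPM to 308 and 340 CPM, Tra2a from 183 and 138 CPM to 84.7 and 96 CPM, and Hnrnpu from 783 and 697 CPM to 430 and 480 CPM. Srrm2, a speckle scaffold protein, had 0.302 and 3.12 CPM and then 12.8 and 18.6 CPM. By edgeR none of the list passed without 24 h replicate 1, and without 24 h replicate 2 only Srsf6 and Luc7l3 did. Ddx5 and Hnrnpu also missed the threshold without any 1 tbGFP-negative library. There were 8 lower and 6 higher members without 6 h replicate 1.

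Zinc finger genes made up a group that was chosen after its values had been seen. Of 290 tested genes named Zfp and a number, 61 rose (21%, against 5.91% of all genes) and 4 fell (1.38%, against 2.90%). The median log2 change was 0.76, and 220 had a positive change. The summed level of the 290 was 9896 and 9680 CPM at 6 h, 14113 and 15723 CPM at 24 h and 13079 and 13604 CPM at 0 h. Of the 290, 20 had no counts at 6 h, and 3 of these were among the 61. Many zinc finger genes of this kind are repressors with a KRAB domain that act on retroelements, and many have near-identical copies. Zfp57, which keeps methylation at imprinted loci (chromosome 17, 37001163 to 37010635), rose from 15.4 and 23.8 CPM to 84.3 and 116 CPM (log2 change 2.33 ± 0.25, or 5.03-fold, adjusted p = 0.000552), and its 0 h level was 109 and 91.4 CPM. Zfp51 rose from 150 and 202 CPM to 756 and 695 CPM (log2 change 2.04 ± 0.25, adjusted p = 0.000729), and Zfp947 from 1.21 and 1.56 CPM to 18.6 and 26.9 CPM (log2 change 3.99 ± 0.57, adjusted p = 0.00133).

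Further zinc finger genes named after their values were seen had the same order of levels. Zfp978 rose from 124 and 184 CPM to 483 and 611 CPM, Zfp937 from 11.2 and 7.09 CPM to 48.8 and 44.6 CPM, and Zfp560 from 301 and 288 CPM to 749 and 666 CPM. In the 6 genes both 24 h libraries lay above both 6 h libraries. At 0 h Zfp51 (513 and 574 CPM) and Zfp978 (404 and 359 CPM) lay between 6 h and 24 h. Zfp296, a pluripotency-associated member, fell from 378 and 416 CPM to 158 and 118 CPM (log2 change -1.52 ± 0.28, adjusted p = 0.00576). By edgeR, 17 of the 290 rose without 24 h replicate 1, 13 without 24 h replicate 2, 105 without 6 h replicate 1 and 82 without 6 h replicate 2, and between 36 and 40 without 1 tbGFP-negative library of 0 h or 24 h. The 6 named increases kept their calls without any single library, and Zfp296 did not pass without 24 h replicate 2 (adjusted p = 0.0777).

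Of 18 tested genes that write, read or erase DNA methylation, 3 rose (16.7%, against 5.91% of all genes) and 1 fell (5.56%, against 2.90%). The median log2 change was -0.32. Beside Zfp57, Mbd1, a methyl-CpG binding protein, rose from 22 and 28.2 CPM to 71.5 and 54.8 CPM (log2 change 1.32 ± 0.25, adjusted p = 0.00641). The glycosylase gene Tdg went from 0 and 0.284 CPM to 3.37 and 4.12 CPM. The de novo methyltransferase gene Dnmt3a fell from 14.8 and 7.94 CPM to 0.71 and 0.589 CPM (adjusted p = 0.0446). Without 24 h replicate 1 the edgeR adjusted p was 0.082 for Mbd1, 0.143 for Tdg and 0.224 for Dnmt3a. With 24 h replicate 2 left out it was 0.153 for Tdg and 0.224 for Dnmt3a, and both also missed the threshold without any 1 tbGFP-negative library.

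Of 38 tested S phase genes 3 fell (7.89%, against 2.90% of all genes) and 2 rose (5.26%, against 5.91%), with a median log2 change of -0.02. Pola1, the catalytic subunit of DNA polymerase alpha, fell from 1210 and 1120 CPM to 559 and 764 CPM (log2 change -0.82 ± 0.16, adjusted p = 0.00782), Mcm4, of the replicative helicase, from 1090 and 883 CPM to 585 and 690 CPM (log2 change -0.63 ± 0.15) and Rrm2, of ribonucleotide reductase, from 255 and 227 CPM to 139 and 168 CPM (log2 change -0.65 ± 0.17). Mcm6 and Pold1, which rose, had at most 0.284 CPM at 6 h. Of 38 tested G2 and mitosis genes, Top2a fell from 3660 and 2890 CPM to 1990 and 2520 CPM, Ccna2 (cyclin A) fell from 125 and 79.7 CPM to 39 and 50.5 CPM, and Cenpa, the histone H3 variant of centromeres, rose from 18.1 and 18.6 CPM to 53.1 and 78.3 CPM (log2 change 1.84 ± 0.31, adjusted p = 0.00335). The median of that list was 0.11, and 5.26% of it fell and 2.63% rose, against 2.90% and 5.91% of all genes. By edgeR only Cenpa kept its call without any single library. With 24 h replicate 1 left out the adjusted p of Pola1 was 0.102, that of Mcm4 0.166, that of Rrm2 0.215, that of Top2a 0.292 and that of Ccna2 0.204. Of the S phase genes 7 were lower and 7 higher without 6 h replicate 2.

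The checkpoint kinases ATR and ATM signal stalled replication and DNA breaks. Of 30 tested members of their list 4 rose (13.3%, against 5.91% of all genes) and 0 fell, with a median log2 change of 0. Of the 4, 2 were at 0 counts in both 6 h libraries and could not fall. Etaa1, an activator of ATR at single-stranded DNA, rose from 118 and 161 CPM to 288 and 303 CPM (log2 change 1.08 ± 0.19, adjusted p = 0.00373), and at 0 h it was at 230 and 274 CPM. Topbp1, another activator of ATR, rose from 354 and 453 CPM to 626 and 631 CPM (log2 change 0.64 ± 0.17, adjusted p = 0.0291). Hus1, of the 9-1-1 clamp, and Timeless, of the fork protection complex, had no counts at 6 h, and 9.23 and 4.27 CPM and 2.66 and 3.09 CPM at 24 h. The calls of Hus1 and Timeless, in any setting, are description only. Atr itself had 12.1 and 2.55 CPM and then 16.5 and 15.8 CPM (adjusted p = 0.196). By edgeR, Etaa1 and Hus1 passed without any single library, and Topbp1 (0.139 and 0.128) and Timeless (0.0897 and 0.0836) missed the threshold without either 24 h library. Of the list 7 members rose and 5 fell without 6 h replicate 2.

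Of 71 tested ribosomal protein genes 60 did not pass, 6 rose (8.45%, against 5.91% of all genes) and 5 fell (7.04%, against 2.90%), with a median log2 change of 0.15. Those that rose included Rpl11, with 0 and 0.284 CPM and then 7.63 and 11.9 CPM, and Rpl10a, with 17.2 and 28.1 CPM and then 47.9 and 50.1 CPM. Rpl30 fell from 110 and 101 CPM to 32.1 and 49 CPM and Rps20 from 158 and 166 CPM to 80.2 and 84.4 CPM. Many pseudogene copies share their sequences. How reads shared between transcripts of 1 gene were counted is not stated either, so a level near 0, as for Rpl11, need not mean absence. Of 31 tested ribosome biogenesis genes 3 fell (9.68%, against 2.90% of all genes) and 1 rose (3.23%, against 5.91%). The median log2 change was -0.04. Npm1, nucleophosmin, fell with Ncl, from 901 and 1310 CPM to 500 and 555 CPM (log2 change -1.07 ± 0.21, adjusted p = 0.00788), and Wdr43 fell from 256 and 185 CPM to 115 and 123 CPM. By edgeR the list had Ncl alone lower without 24 h replicate 1 or without 24 h replicate 2. Npm1 then had an adjusted p of 0.0952 and 0.0551 and Wdr43 of 0.151 and 0.103. Rpl11 passed without any single library, whereas Rpl10a, Rpl30 and Rps20 did not without 24 h replicate 1 (0.111, 0.103 and 0.103). The ribosomal protein genes that passed numbered between 1 and 16 higher and between 0 and 14 lower when single libraries were left out.

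Of 26 tested naive pluripotency genes Klf5 alone passed (3.85%, against 8.82% of all genes), at 349 and 380 CPM and then 212 and 244 CPM (log2 change -0.68 ± 0.20, adjusted p = 0.0441), and the median was -0.12. Pou5f1 had 772 and 1420 CPM at 6 h and 998 and 602 CPM at 24 h (adjusted p = 0.298), Nanog 18.4 and 7.52 CPM and then 20.1 and 25.8 CPM (adjusted p = 0.186), and Klf4 308 and 442 CPM and then 265 and 211 CPM (adjusted p = 0.0511). The call of Klf5 was lost in edgeR without 24 h replicate 1 (adjusted p = 0.25), without 24 h replicate 2 (0.125) and without several other libraries. Among the naive genes that passed, more fell than rose without 6 h replicate 1, and more rose than fell without 6 h replicate 2. Of 17 tested formative and primed genes, Etv4 and Tcf15 rose and Dnmt3a, Krt18 and Zic2 fell (29.4% called, against 8.82%, with a median log2 change of 0.52). None of the 5 passed without 24 h replicate 1, and Zic2 alone passed without 24 h replicate 2 (edgeR). Of 19 tested FGF-ERK ligands and feedback genes, 3 rose (15.8%, against 5.91% of all genes) and 0 fell. Of the 3, 2 were at 0 counts in both 6 h libraries and could not fall. Spry4, a feedback inhibitor of this pathway, went from 272 and 215 CPM to 420 and 365 CPM (adjusted p = 0.0329), and Dusp6 and Etv4 had no counts at 6 h. The cells had been expanded in an inhibitor of the upstream kinase MEK, and its part in this result was not tested. The edgeR adjusted p of Spry4 without 24 h replicate 1 was 0.205.

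Markers of other cell types checked what else the gate could hold. Of 12 tested primitive endoderm markers 1 rose (8.33%, against 5.91% of all genes), which was Lama1 (149 and 159 CPM, then 243 and 220 CPM). The summed level was 1361 and 1486 CPM and then 1626 and 1304 CPM. Foxa2, Gata4 and Hnf4a were at 0 in all 4 libraries. Of 9 tested trophectoderm markers 3 fell (33.3%, against 2.90% of all genes). They were Krt18 (112 and 106 CPM, then 29.3 and 29 CPM), Krt8 (88.1 and 116 CPM, then 57.2 and 49.5 CPM) and Tead4 (42.2 and 18.9 CPM, then 8.7 and 10.5 CPM). The summed level of that list was 264.6 and 261.1 CPM and then 141.1 and 136.7 CPM, and Esx1 and Prl3d1 were at 0. Of 9 mesoderm and ectoderm markers 1 rose (11.1%, against 5.91% of all genes). It was Kdr, the VEGF receptor, with 3.02 and 9.22 CPM and then 31.2 and 23.3 CPM. Mesp1 and Nkx2-5 were at 0. The sum over this list was 95.4 and 146.1 CPM and then 144.1 and 123.4 CPM. Of 9 fibroblast markers 1, Vim, fell (11.1%, against 2.90% of all genes), from 12.4 and 23.1 CPM to 5.68 and 4.27 CPM. Fbn1, Pdgfrb and Postn were at 0, and the sums were 139.8 and 178.2 CPM and then 185.8 and 148 CPM. Of 11 germline markers none passed by edgeR, with sums of 1138 and 1760 CPM and then 1769 and 1327 CPM. Asz1, Ddx4, Stk31, Sycp3 and Tdrd1 were at 0 there, while the testis histones stood at the levels given above. No call on these marker lists held without 24 h replicate 1 or without 24 h replicate 2.

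**Figure D4:**
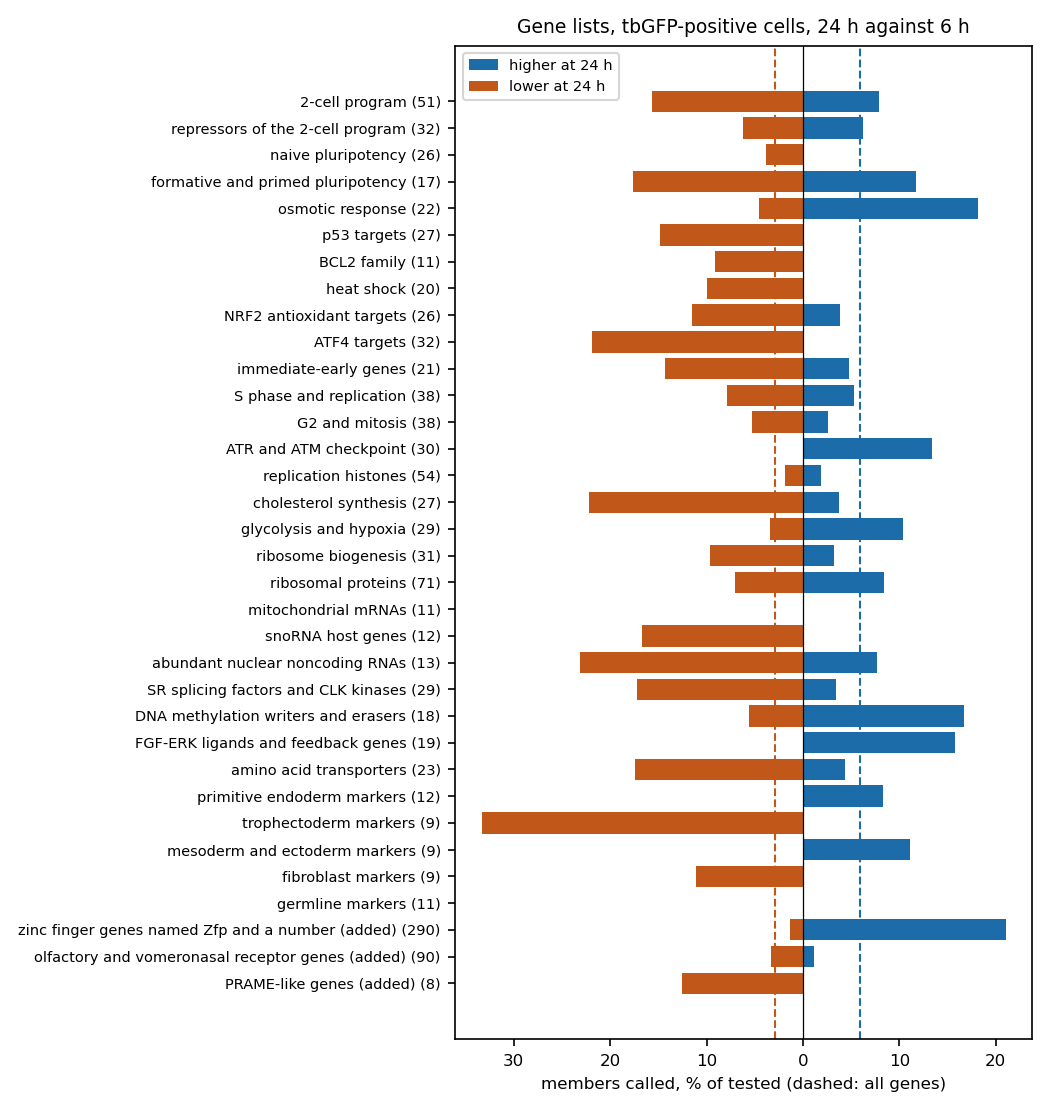
Percent of tested members of each gene list that rose (bars to the right) or fell (bars to the left) from 6 h to 24 h in tbGFP-positive cells, with dashed lines at the percent over all tested genes, 5.91% higher and 2.90% lower. Trophectoderm markers (3 of 9), the nuclear noncoding RNAs, the cholesterol synthesis list and the ATF4 targets reach farthest to the left, and the zinc finger genes, added after their values were seen, farthest to the right.

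Among single genes with counts in all 4 libraries, the largest decreases took transcripts from clear levels at 6 h to near 0. Cypt2, a testis gene of the cysteine-rich perinuclear theca family, fell from 96.6 and 57 CPM to 2.31 and 2.21 CPM (log2 change -5.07 ± 0.76, adjusted p = 0.00267). Cdc14a, a phosphatase of the cell cycle, fell from 18.1 and 13.6 CPM to 1.06 and 0.294 CPM (log2 change -4.53 ± 0.78). Neb, the muscle protein nebulin, fell from 36.8 and 19.6 CPM to 2.31 and 1.18 CPM, and Tmem190 from 17.8 and 8.79 CPM to 0.71 and 0.589 CPM. Gadd45g, a stress gene, had 121 and 19 CPM at 6 h and 3.9 and 4.27 CPM at 24 h. Itgax (19.9 and 4.11 CPM), Dio3 (33.2 and 2.55 CPM) and Tssk1 (22.9 and 1.99 CPM) were uneven between the 6 h libraries and had at most 0.883 CPM at 24 h. By edgeR, Dio3 had an adjusted p of 0.407 and Tssk1 of 0.27 without 6 h replicate 1, and both missed the threshold without most other single libraries. Cypt2 (0.0572 and 0.0506), Neb (0.101 and 0.136), Tmem190 (0.166 and 0.164) and Itgax (0.171 and 0.144) missed the threshold without 24 h replicate 1 and without 24 h replicate 2. Gadd45g missed it without 24 h replicate 1 (0.0587) and Cdc14a without 24 h replicate 2 (0.0583). The log2 change of Cdc14a was then -3.87, and -5.65 without 24 h replicate 1.

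The largest increases among genes with counts in all 4 libraries started from a few CPM at 6 h. Mocs3, of molybdenum cofactor synthesis and tRNA thiolation, rose from 4.53 and 2.41 CPM to 44 and 28.3 CPM (log2 change 3.44 ± 0.40, adjusted p = 0.000684), and its 0 h level was 27 and 29.9 CPM. Adat1, a tRNA adenosine deaminase, rose from 3.02 and 2.84 CPM to 31.6 and 29 CPM (log2 change 3.37 ± 0.41, adjusted p = 0.000688). Alox12e, a lipoxygenase, rose from 3.32 and 3.55 CPM to 58 and 36.5 CPM (log2 change 3.77 ± 0.47, adjusted p = 0.000749), and was as low at 0 h (1.92 and 4.2 CPM) as at 6 h. Better expressed genes also rose. Stard8, a RhoGAP, went from 50.7 and 65.5 CPM to 244 and 175 CPM, Stox1, a winged-helix protein, from 72.4 and 65.5 CPM to 267 and 185 CPM, Stx3, a syntaxin, from 77 and 90.6 CPM to 217 and 240 CPM, and Afap1, an actin filament protein, from 18.1 and 23.3 CPM to 82.4 and 94.4 CPM. Stard8 (93.8 and 94.1 CPM), Stx3 (117 and 108 CPM) and Afap1 (39.8 and 30.1 CPM) were lower at 0 h than at 24 h, whereas Stox1 at 0 h (214 and 223 CPM) overlapped with 24 h. These 7 calls held without any single library. Notumos, Cdca2, Elk3, Tubgcp4, Slc22a28, Npr1 and Pcp4l1, the others of the largest increases, had between 0.284 and 2.84 CPM at 6 h and between 9.41 and 26.1 CPM at 24 h. Of these Notumos, Cdca2 and Elk3 passed without any single library, and the other four did not pass without 24 h replicate 1 (edgeR adjusted p between 0.0613 and 0.165).

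Of 2326 tested genes at 0 in both 6 h libraries, 452 rose. A gene chosen for 0 counts at 6 h cannot fall, so the direction was set by that choice. The calls of such genes, here and above, are description only. A count of 0 allows up to 3 counts, so each fold is a lower bound against 3 counts over the 6 h group. Igsf21, an immunoglobulin superfamily gene, had 18.5 and 17.2 CPM at 24 h, at least 61.5-fold higher, and 7.47 and 2.97 CPM at 0 h. Krt5, a keratin, had 16 and 10.3 CPM, at least 45.3-fold higher, and 1.53 and 0.494 CPM at 0 h. Wdr11 (12.6 and 11.3 CPM) was at least 41.5-fold higher, and Mcm9 (9.76 and 11.6 CPM) and Ndfip1 (11.9 and 9.42 CPM) were at least 37.0-fold higher each. Mcm9, a helicase of homologous recombination, had 11.1 and 14.3 CPM at 0 h, so that it was present, at 0 and present again over the 3 times. In the other direction, 26 of 226 tested genes at 0 in both 24 h libraries fell, and genes chosen in this way could not rise. The 6 h libraries were also those with the fewest genes at equal depth, and the part of this in the genes listed at 0 was not tested. Reads were counted per transcript, with the treatment of shared reads not stated, so 0 counts need not mean absence. Krt5 missed the threshold without 24 h replicate 1 (edgeR adjusted p = 0.0826), and without 24 h replicate 2 (0.0506).

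The tbGFP-negative cells of the same times give the comparison without the 2-cell gate. In them 701 genes rose (3.62%) and 833 fell (4.30%), 1534 in all (7.91%), from 6 h to 24 h. This split depended on the scaling, with 1392 higher and 308 lower by library totals alone and 596 and 1110 by upper-quartile factors. Of the genes called in tbGFP-positive cells, 266 rose and 250 fell in both fractions, 4 rose where they fell in tbGFP-negative cells, and 26 fell where they rose there. The fractions share no library. Tested as the difference of both changes, 59 genes (0.304%) had a higher and 126 (0.650%) a lower change in the tbGFP-positive fraction by edgeR, and 96 of these 185 (0.954%) were called in tbGFP-positive cells. That number was 2488 without 6 h tbGFP-positive replicate 2 and 1218 without replicate 1, and between 78 and 112 without any other library of 6 h or 24 h. By library totals alone 32 were higher and 230 lower.

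Of the 153 called genes named here, 78 passed in the same direction in tbGFP-negative cells, 6 passed in the opposite direction and 69 did not pass there, and the difference between fractions passed for 19. Over all 1709 called genes, 266 rose and 250 fell in both fractions, 4 and 26 went in opposite directions, and the difference passed for 96. Named genes were chosen partly by small p, also for the difference itself, so their larger shares reflect that choice. Hist1h2aa went from 425 and 363 CPM to 38.7 and 27.7 CPM in tbGFP-negative cells, and Hist1h2ba from 369 and 335 CPM to 53.4 and 50.2 CPM, and neither difference between fractions passed (adjusted p = 0.209 and 0.381). Zfp57 rose there from 17.8 and 18.1 CPM to 199 and 230 CPM. Of the 290 zinc finger genes 55 rose and 4 fell there, against 3.62% and 4.30% of all genes. Of the 32 ATF4 targets, 14 fell and 0 rose there, with a median log2 change of -0.98, and 9 of the 27 p53 targets fell. These compare with 4.30% of all genes that fell in tbGFP-negative cells. Plk2, uneven in tbGFP-positive cells at 6 h, was at 2160 and 2040 CPM in tbGFP-negative cells at 6 h and at 213 and 216 CPM at 24 h. Slc5a3 was at 360 and 320 CPM and then at 312 and 311 CPM, much as in tbGFP-positive cells.

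Among the named genes, 2-cell genes had the smallest adjusted p for the difference between fractions (edgeR). The largest fitted difference was that of Rps27l (11.61), which had no counts in tbGFP-positive cells at 6 h. In tbGFP-negative cells 27 of the 51 tested genes of the 2-cell list rose, against 3.62% of all genes. There 2 fell, against 4.30%, and the median log2 change was 2.67. The difference passed for 23 members that changed less or fell in tbGFP-positive cells, against 0.650% of all genes. It passed for 1, Ddit4l, in the other direction, against 0.304%. Zscan4d rose in tbGFP-negative cells from 18.3 and 15.6 CPM to 233 and 205 CPM, far under the tbGFP-positive level, and the difference in log2 change was -3.90 ± 0.26 (adjusted p = 1.32e-06). Gm8300 rose from 12.4 and 10.4 CPM to 144 and 125 CPM and Tdpoz4 from 0.335 and 0 CPM to 18.4 and 18.7 CPM. Spz1 had 0.335 and 0 CPM and then 3.62 and 4.19 CPM, and Usp17ld 1.34 and 2.08 CPM and then 9.2 and 5.96 CPM, so that both rose in 1 fraction while they fell in the other. Duxf3 was near 0 in tbGFP-negative cells, at 2.52 and 1.66 CPM and then 1.45 and 0.761 CPM, and its difference did not pass (adjusted p = 0.263). The sum over the list in tbGFP-negative cells at 24 h, 1752 and 1654 CPM, counts cells under the gate together with any positive cells sorted among them, which cannot be told apart.

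Other differences concerned genes outside the 2-cell list. Hmox1 fell from 355 and 399 CPM to 57.5 and 58.5 CPM in tbGFP-negative cells, a log2 change of -2.70 ± 0.20 against -0.87 ± 0.20 in tbGFP-positive cells (difference 1.83 ± 0.28, adjusted p = 0.00279). Dll1 fell from 97.1 and 89 CPM to 3.93 and 4.06 CPM, a larger decrease than in tbGFP-positive cells (difference 2.20 ± 0.42, adjusted p = 0.0184). Rn7sk moved in opposite directions, from 66400 and 62800 CPM to 37200 and 37900 CPM in tbGFP-negative cells while it rose in tbGFP-positive cells (difference 1.84 ± 0.26, adjusted p = 0.00144). Ddit4l also did so, from 78.8 and 63.6 CPM to 29.4 and 31.2 CPM (difference 2.15 ± 0.30, adjusted p = 0.00141). Stox1, which rose in tbGFP-positive cells, had 8.89 and 8.32 CPM and then 5.38 and 5.07 CPM in tbGFP-negative cells, which did not pass there by edgeR (difference 2.43 ± 0.34, adjusted p = 0.00149). Arrdc4, an arrestin-domain gene, fell from 337 and 323 CPM to 118 and 105 CPM in tbGFP-negative cells and had 274 and 316 CPM and then 288 and 280 CPM in tbGFP-positive cells (difference 1.51 ± 0.22, adjusted p = 0.00182).

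**Figure D5:**
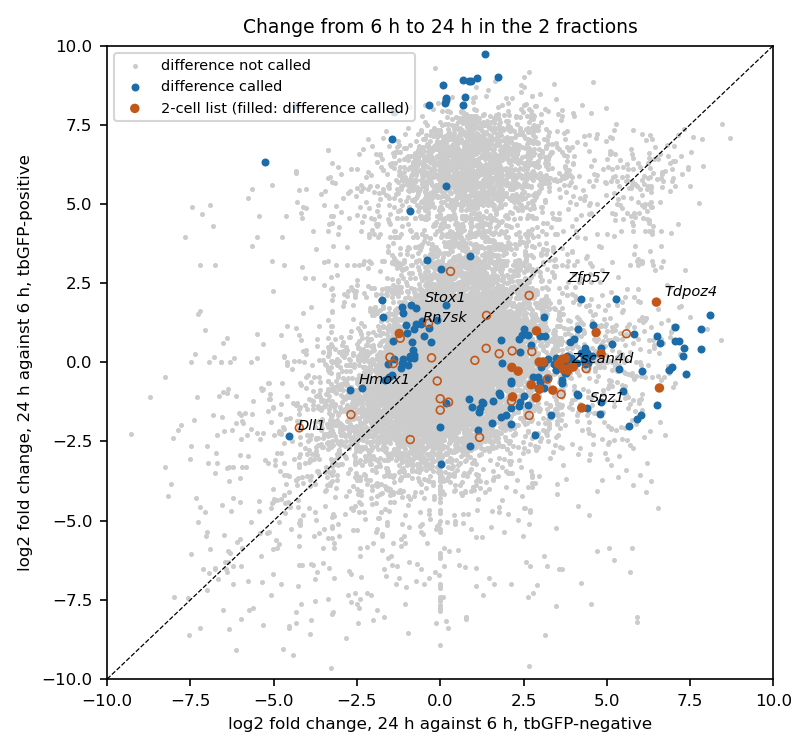
Log2 change from 6 h to 24 h in tbGFP-positive cells (y axis) against that in tbGFP-negative cells (x axis), 1 point per tested gene. Blue points are genes whose difference between fractions passed the test, and orange points are the 2-cell list (filled where the difference passed), which lies mostly at positive changes in tbGFP-negative cells and around 0 in tbGFP-positive cells. There are 2 genes outside the axes.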

How the data were processed

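Each library was deposited as a table of unnormalized read counts over Ensembl transcripts, per the file headers. The submitters' processing notes name the build mm10 and the tools FastQC, HISAT2 (an aligner), featureCounts (a read counter) and DESeq2, with no version. The TruSeq Stranded kit marks strand, per the labels' protocols, but the strand setting and the treatment of reads shared between transcripts are not given in the sources used here, so overlapping, antisense and near-identical genes are uncertain.

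Counts of 142446 transcripts were summed per gene by identifier without version with GENCODE M21 (GRCm38): 141536 matched, and the 910 others, 0.0606% to 0.0903% of counts, were left out. Of 55266 genes, 19384 had at least 10 counts in at least 2 of 12 libraries. edgeR 4.0.16 (R 4.3.3) fitted a mean for each of 6 groups with TMM factors and the robust quasi-likelihood F test, with Benjamini-Hochberg adjustment over the genes tested at 0.05 (common dispersion 0.208). CPM are counts scaled to 1000000 of the total times its TMM factor. The SE is the absolute log2 fold change divided by the square root of F. A group at 0 counts was compared at a floor of 3 counts over the group, for counting error only, and no molecular identifiers mark PCR copies. Scripts were tested on simulated data.

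The members, the 31 gene lists and the 45 panel genes were chosen with earlier results of these data known, and 3 further lists and 18 genes were added after their values were seen. Named genes were the 10 largest and the 10 of smallest p in each direction with counts in all 4 libraries, the 5 highest of those at 0 at 6 h, the panel, up to 6 called members of each list, and the 5 of smallest p in each direction for the difference between fractions. The alternatives covered scaling, DESeq2 1.42.0, filters, the libraries fitted, depth, the replicate number and each library left out.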

Additional observations from a re-analysis of the deposited data

Results flagged for a closer look

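For 29 named genes the change from 6 h to 24 h differed between tbGFP-positive and tbGFP-negative cells by the edgeR test of that difference, and 16 of these differences were negative, meaning that the change was lower in tbGFP-positive cells. They are log2 differences. Among 2-cell genes they were -7.39 for Tcstv3, -5.69 for Spz1, -4.60 for Tdpoz4, -4.25 for Tmem92, -4.07 for Zscan4c, -4.00 for Usp17le, -3.92 for Zscan4-ps2, -3.90 for Zscan4d, -3.76 for Gm2035, -3.75 for Gm12800, -3.74 for Tdpoz3, -3.60 for Gm8300, -3.26 for Usp17ld and -1.90 for Arg2. Levels in tbGFP-negative cells at 6 h were low for these genes, such as 12.4 and 10.4 CPM for Gm8300 and 2.01 and 1.66 CPM for Gm2035. Spz1 and Tdpoz4 had almost no counts there, at the levels given above. Fitted sizes of such genes depend on the prior count and give no bound. Outside that list the differences were -3.56 for Gm47995 and -3.21 for Gm5053, both chosen after their values were seen.

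The change was higher in tbGFP-positive cells for 13 named genes. The difference was 1.51 for Arrdc4, 1.66 for Zfp978, 1.83 for Hmox1, 1.84 for Rn7sk, 2.15 for Ddit4l, 2.20 for Dll1, 2.43 for Stox1 and 2.48 for Adat1. It was 5.39 for Rpl11, 7.28 for Mcm9, 8.16 for Hus1, 8.40 for Igsf21 and 11.61 for Rps27l. At 6 h the tbGFP-positive libraries held 2 counts of Rpl11 and 0 of the other four, so these fitted sizes depend on the prior count and give no bound. No group held the 4 libraries that a search for single outlying libraries needs.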

How the results depend on the processing

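The count of 1709 genes kept its size (within 1.5 times) under other scaling (1648 to 1696), with no filter (2170, of them 1568 higher and 602 lower), and with at least 10 counts asked in each of the 4 libraries (1156, with 622 higher and 534 lower). It was 2886 with DESeq2, 1040 with only the 8 libraries of 6 h and 24 h, 0 with the 4 libraries alone and 859 with counts thinned to the smallest total. Leaving out 1 library gave 241 to 4758. In tbGFP-negative cells (1534) DESeq2 gave 2308 and leaving out 1 library 519 to 3779. For the difference between fractions (185) DESeq2 gave 480, no filter 605, at least 10 counts in each of the libraries compared 55, only the libraries of 6 h and 24 h 108, and leaving out 1 library 78 to 2488. Of 2326 genes at 0 at 6 h, 591 had at least 10 counts in each 24 h library, a filter that keeps genes high at 24 h, so nothing is read from how many of them rose. The cause was not tested, apart from the smaller number of genes or libraries that some settings use. Where 1 library of a group was left out, the lone library was assumed to vary like the other groups.

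Same-numbered libraries of 6 h and 24 h did not deviate together (correlation of deviations -0.127 over 6848 genes, and between -0.16 and 0.283 for all pairs of groups), so the number was not taken to pair them. With the replicate block 1279 genes were called in tbGFP-positive cells, 1394 in tbGFP-negative cells and 162 for the difference. With the 6 h numbers crossed, an alternative chosen after seeing the data, 1463 were called.

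Log2 changes that turned sign belonged to genes that had not passed. Without 6 h replicate 2 they were 0.37 for Bbc3, 0.29 for Mdm2, 0.5 for Btg2, 0.05 for Pou5f1, 6.87 for Dppa3, 0.05 for Arrdc4, 0.12 for Ccne1 and 0.01 for Akr1b3. Without 6 h replicate 1 they were -0.36 for Ccng1, 3.69 for Myc, 0.18 for Chek1 and 0.08 for Zscan4-ps2. Without 24 h replicate 2 Ccne1 gave 0.14, and without either 6 h tbGFP-negative library Ccne1 and Gm8300 gave 0.03 and Arrdc4 0.02. With no filter Ccne1 and Gm8300 gave 0.06 and Arrdc4 0.05, thinned counts gave 0.02 for Akr1b3, and the crossed block gave 0.47 for Dppa3. Over all left-out libraries the log2 change ranged from -0.23 to 0.01 for Akr1b3, -0.26 to 0.14 for Ccne1, -2.15 to 0.37 for Bbc3, -1.68 to 0.29 for Mdm2, -0.36 to 1.3 for Ccng1, -0.63 to 0.5 for Btg2, -1.83 to 3.69 for Myc, -0.86 to 0.05 for Pou5f1, -3.07 to 0.18 for Chek1, -0.15 to 0.05 for Arrdc4, -1.16 to 6.87 for Dppa3, -0.09 to 0.03 for Gm8300 and -0.32 to 0.08 for Zscan4-ps2. No called gene among those named turned sign. Beside genes for which this is given above, the calls of Top2a, Gadd45b, Nsdhl, Pgd, Krt8 and Vim were lost without any 1 tbGFP-negative library.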

Other observations

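A few transcripts that no list held were high in tbGFP-positive cells at 6 h and near 0 in the other groups. All were chosen after their values were seen. Ccer1, a coiled-coil gene, had 117 and 38.9 CPM at 6 h and 1.24 and 0 CPM at 24 h, against 0.383 and 0.988 CPM at 0 h and at most 0.624 CPM in tbGFP-negative cells at 6 h and 24 h. Its log2 change was -7.01 ± 1.02 (edgeR adjusted p = 0.00183), and -5.94 without 24 h replicate 2. Cypt4, of the same family as Cypt2, had 71.2 and 12.9 CPM at 6 h and no counts at 24 h, so that 6 h was at least 174-fold higher (adjusted p = 0.0043). In tbGFP-negative cells at 6 h it had 0.335 and 0.416 CPM. The 6 h replicates of both genes differed by a factor that the 2 libraries cannot place, and Cypt4 missed the threshold without 24 h replicate 1 (0.0593) or without 24 h replicate 2 (0.054).

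Gm5053 fell from 533 and 331 CPM to 49.3 and 44.8 CPM, a log2 change of -3.20 ± 0.32 (adjusted p = 0.000552), and Gm47995 from 372 and 272 CPM to 56.4 and 45.8 CPM, a log2 change of -2.65 ± 0.32 (adjusted p = 0.000688). At 0 h they were at 64 and 44.2 CPM and at 78.9 and 52.4 CPM. In tbGFP-negative cells Gm5053 had 2.35 and 0.832 CPM at 6 h and 1.34 and 2.03 CPM at 24 h, and Gm47995 had 1.01 and 1.66 CPM and then 2.17 and 2.79 CPM. Both genes were therefore high in tbGFP-positive cells at each time and highest there at 6 h, in every library, and their changes differed between fractions (adjusted p = 0.0157 and 0.00593, edgeR).

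Olfactory and vomeronasal receptor genes were a list added after values were seen. Of 90 tested, 1 rose (1.11%, against 5.91% of all genes) and 3 fell (3.33%, against 2.90%). The median log2 change was -0.10. Of 11 tested mitochondrial mRNAs none passed by edgeR.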
